A study of Mus musculus with 4 samples.

Results

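The genes described here are those whose transcripts stood out in a single library, risperidone replicate 2, in mRNA sequencing of differentiated 3T3-L1 cells. They were chosen by their estimated read counts. A gene had to have at least 20 counts in risperidone replicate 2 and at least 10 times the larger of 1 and its highest count in the other 3 libraries. Of the 16051 genes in the table, 163 met this rule, which is 1.02%. With the same thresholds set on any of the other 3 libraries, 0 genes met it. The rule used the counts of all 4 libraries, so the counts are given as a description, without a test. Among them were Kap, Slc34a1, Umod and Miox, which are typical of the kidney.

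3T3-L1 is a mouse embryonic fibroblast line that can form adipocytes in culture. All cells were differentiated with isobutyl-methylxanthine, dexamethasone and insulin, and then received 100 μM risperidone, an antipsychotic drug, or its solvent DMSO for 48 h. There were 2 libraries for each treatment. RNA of 3 cultures was pooled in every one of them, so differences among single cultures cannot be seen. GEO's labels give the strain as NIH SWISS, the tissue as embryonic and the controls as untreated, and they describe RNA from retinas, which the paper's methods do not mention. On the adipocyte list of 10 genes, Lpl, the lipase that releases fatty acids from lipoproteins, had 14999 and 15569 counts with DMSO and 12235 and 11967 with risperidone, and Fabp4, a fatty acid binding protein of adipocytes, had 1079 and 1360 with DMSO and 492 and 586 with risperidone. Pparg, the master regulator of adipocyte formation, had 345 to 388 counts and Cd36, a fatty acid receptor, had 49 to 71. Adipoq and Retn, hormones that define mature adipocytes, had at most 1 count in every library. No label names a kidney or a kidney cell.

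The kidney filters blood plasma in the glomerulus and recovers most of the filtrate in the tubule behind it. The proximal tubule takes back glucose, phosphate, amino acids and filtered protein through its brush border, secretes organic anions and makes glucose. The thick ascending limb of the loop of Henle and the distal convoluted tubule recover salt, and the collecting duct adjusts water, sodium and acid. Each segment carries its own transporters, so the transcripts of a kidney sample can be sorted by segment.

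The libraries were of like depth, with 15883712 to 16374119 counts, and a count of 0 allows up to 3 counts, or 0.183 to 0.189 CPM. Counts above 0 were found for 14657 genes in risperidone replicate 2 and for 13810 to 13962 genes in the others. Genes with a count in 1 library alone numbered 834 in risperidone replicate 2 and 275 to 318 in the others, and 179 of the 834 had at least 5 counts, against 0 to 3 genes in the others. In bulk RNA, more cells of a type and more RNA per cell cannot be told apart.

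Together the 163 genes held 18439 counts in risperidone replicate 2, which was 0.115% of the library (95% exact Clopper-Pearson interval 0.114% to 0.117%, for counting error only). In risperidone replicate 1, which received the same treatment, they held 210 counts, or 0.00129% (0.00112% to 0.00148%). The DMSO libraries held 366 and 204 counts on them, or 0.00224% and 0.00128%. The rule required low counts in all 3 of these libraries, so nothing is read from their low sums. For 105 of the 163 genes the count of risperidone replicate 1 lay within the range of the DMSO libraries, for 33 it lay below and for 25 above. The source of the transcripts was not tested.

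**Figure D1:**
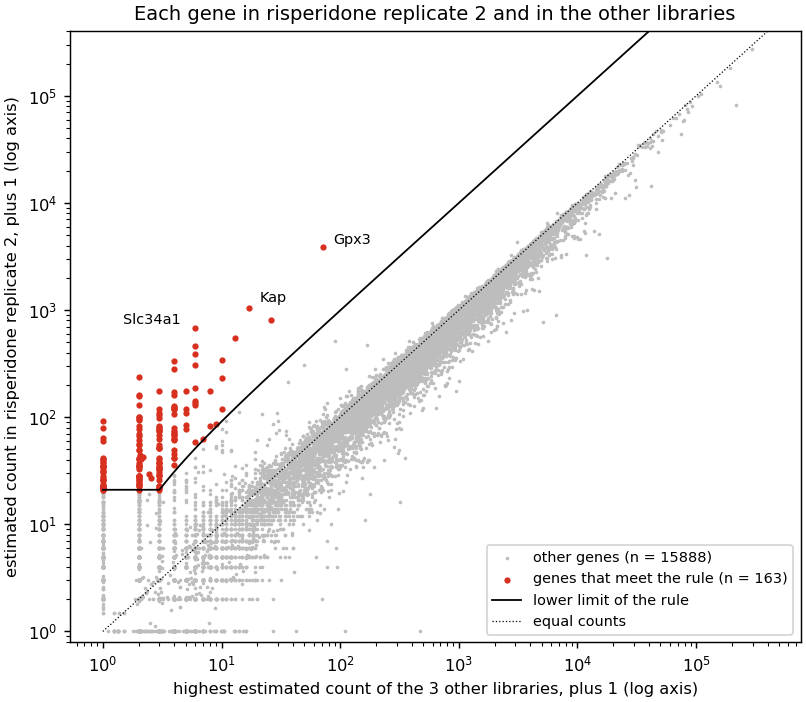
Each point is 1 gene, with its estimated count plus 1 in risperidone replicate 2 on the vertical log axis and the highest estimated count plus 1 of the 3 other libraries on the horizontal log axis. The 163 genes that meet the rule are red, the other genes of the table are grey, the solid line is the lower limit of the rule and the dotted line marks equal counts. The red points stand over low counts elsewhere, up to Gpx3 with 3851 counts against at most 70.

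The genes differed widely among themselves in level. In risperidone replicate 2, 11 genes had at least 10 FPKM, 97 had from 1 to under 10 FPKM and 55 had less than 1 FPKM, with a median of 1.44 FPKM. FPKM divides a count by transcript length and depth, so it can be compared between genes. By count the median was 48, and 38 genes had at least 100 counts. The first 20 genes by count held 58.1% of the counts of the 163, and Gpx3 alone held 20.9%. In the other 3 libraries 32 of the genes had 0 counts throughout, and 150 had at most 5 counts in each. Among these libraries the highest count belonged to DMSO replicate 1 alone for 57 genes, to risperidone replicate 1 alone for 25, to DMSO replicate 2 alone for 19 and was tied for 62.

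Where 4 values are given in a row, they stand for DMSO replicates 1 and 2 and then risperidone replicates 1 and 2. Kap, the kidney androgen-regulated protein of the proximal tubule, had 13, 8, 16 and 1048 counts. Slc34a1, the sodium-phosphate cotransporter of the proximal brush border, had 5, 3, 3 and 681 counts. Umod, uromodulin, which the thick ascending limb secretes into urine, had 5, 2, 5 and 385 counts. In each of these genes risperidone replicate 2 stood apart, as the rule required. Miox, which starts the breakdown of myo-inositol in the proximal tubule, had 2, 2, 3 and 280 counts. In FPKM the last library had 136.19 for Kap, 17.66 for Slc34a1, 9.60 for Umod and 19.04 for Miox, and at most 2.07, 0.14, 0.13 and 0.20 were found in the other libraries.

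Promoter windows of these 4 genes and 1 of the 2 windows of Hnf4a, a transcription factor of kidney and liver epithelium that also met the rule, are shown since the rule made no use of sequence. They are RefSeq windows on GRCm38.p6, from 250 bases before the transcription start to 50 after it, written 5′ to 3′ on the strand of the gene. Capitals mark matches to GTTAAT, a core of the site of the HNF1 factors, to AAAGTCC, a core of the HNF4 site, or to TATAAA, the TATA box, on either strand. No match means only that these letters are not in the window.
Kap, chr6:133853618-133853917, minus strand: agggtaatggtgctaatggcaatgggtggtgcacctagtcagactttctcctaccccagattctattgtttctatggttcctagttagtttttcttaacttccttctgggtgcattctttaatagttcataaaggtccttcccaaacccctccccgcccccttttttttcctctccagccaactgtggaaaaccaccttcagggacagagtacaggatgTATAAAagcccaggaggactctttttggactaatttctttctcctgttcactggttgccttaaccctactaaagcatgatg
Slc34a1, chr13:55399398-55399697, plus strand: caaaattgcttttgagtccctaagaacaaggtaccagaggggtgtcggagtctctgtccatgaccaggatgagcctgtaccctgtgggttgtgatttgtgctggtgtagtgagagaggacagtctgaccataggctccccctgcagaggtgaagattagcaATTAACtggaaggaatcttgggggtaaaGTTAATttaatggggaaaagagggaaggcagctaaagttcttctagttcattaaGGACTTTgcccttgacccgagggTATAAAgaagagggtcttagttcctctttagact
Umod, chr7:119479213-119479512, minus strand: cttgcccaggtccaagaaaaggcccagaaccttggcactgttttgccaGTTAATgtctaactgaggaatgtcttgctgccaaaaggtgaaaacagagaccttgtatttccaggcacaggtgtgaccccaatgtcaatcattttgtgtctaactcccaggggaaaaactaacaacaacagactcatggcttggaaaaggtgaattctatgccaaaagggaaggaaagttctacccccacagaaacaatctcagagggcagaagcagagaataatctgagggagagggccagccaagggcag
Miox, chr15:89334223-89334522, plus strand: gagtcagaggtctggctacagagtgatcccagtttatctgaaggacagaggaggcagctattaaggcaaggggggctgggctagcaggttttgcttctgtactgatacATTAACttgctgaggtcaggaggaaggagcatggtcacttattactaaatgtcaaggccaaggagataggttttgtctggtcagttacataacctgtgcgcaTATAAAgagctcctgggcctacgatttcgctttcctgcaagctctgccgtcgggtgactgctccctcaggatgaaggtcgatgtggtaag
Hnf4a, chr2:163546905-163547204, plus strand: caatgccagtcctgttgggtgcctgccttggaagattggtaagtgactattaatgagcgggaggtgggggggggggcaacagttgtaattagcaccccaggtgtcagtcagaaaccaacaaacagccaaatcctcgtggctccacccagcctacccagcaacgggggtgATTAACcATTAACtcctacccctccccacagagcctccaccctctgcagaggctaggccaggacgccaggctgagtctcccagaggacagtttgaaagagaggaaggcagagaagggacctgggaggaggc

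The window of Slc34a1 held GTTAAT on the gene's own strand 61 bases before the start, and the same letters on the opposite strand 89 bases before it. Of the windows of Hnf4a, the one printed held it on the opposite strand, starting both 81 and 74 bases before the start, and the other, chr2:163506607-163506906, held no match to any of the motifs. Umod and Miox each held GTTAAT at 1 place, 202 and 142 bases before the start. Kap and Miox held TATAAA 31 and 40 bases before the start, and Slc34a1 held it 16 bases after the start and AAAGTCC on the opposite strand 7 bases before it. These windows also held few CpG dinucleotides, with 0 in that of Umod. The window of Gpx3, the gene with the most counts, is not printed. It held no match to any of the motifs, and its ratio of CpG found to CpG expected was 0.547.

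Windows were given for 123 of the 163 genes, 153 in all, and for 12501 other genes of the table, 15837 in all. GTTAAT stood in 37 of the 153 windows, or 24.2%, against 4.86% of the windows of the other genes and 5.05% of all windows. AAAGTCC stood in 9.15%, against 4.02% of the others and 4.07% of all. TATAAA stood in 19.6%, against 8.54% of the others and 8.65% of all. The windows also differed in base composition. Median GC content was 51% against 59.3%, and the ratio of CpG found to CpG expected from the base content was under 0.5 in 127 of the 153 windows, against 5186 of the 15837. Within the windows under that ratio, GTTAAT stood in 28.3% against 7.87% and TATAAA in 23.6% against 14.7%. These shares were not tested, and several genes share a family or a stretch of chromosome.

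**Figure D2:**
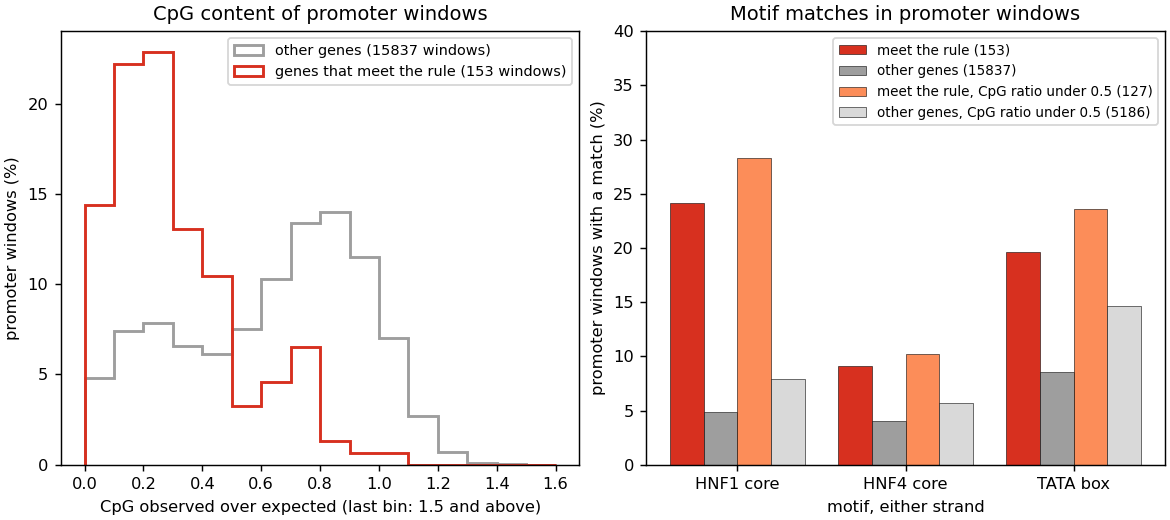
The left panel plots the share of promoter windows (%) by the ratio of observed to expected CpG for the 153 windows of genes that meet the rule (red) and the 15837 windows of other genes (grey). The right panel plots the share of windows (%) with a match to each motif on either strand, for all windows and for those with a CpG ratio under 0.5. The red windows lie mostly under 0.5, and GTTAAT stood in 24.2% of them against 4.86% of the others.

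Secreted proteins were led by Gpx3, the glutathione peroxidase that the kidney releases into plasma, with 70, 32, 35 and 3851 counts. It was also the highest of the 163 genes per length, at 173.32 FPKM in that library against 1.46 to 3.09 FPKM in the others. Gpx3 and Kap were the only ones of the 163 genes above 1 FPKM in another library. Besides Kap and Umod, this class of 13 genes held Kl, or klotho, the coreceptor of the phosphate hormone, with 83 counts, and Guca2b, uroguanylin, a peptide that raises salt excretion, with 54. Kl had at most 4 counts in the other libraries and Guca2b at most 2. The class held 5802 counts, or 31.5% of those on the 163 genes.

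Membrane transport was the largest class by number, with 32 genes and 3333 counts, against 31.0 to 66.0 in the other libraries. Solute carriers made up 24 of the 163 genes, or 14.7%, while they made up 2.04% of the table. Slc27a2, a fatty acid carrier and acyl-CoA synthetase of the proximal tubule, had 5, 2, 0 and 459 counts. Slc13a3, which takes up dicarboxylates, had 7, 1, 7 and 175. Both were high in the last of the libraries alone, as the rule required. Slc22a12, the urate exchanger, had 9, 4, 0 and 119 counts, and the organic anion carriers Slc22a8 and Slc22a6 had 99 and 78 counts in risperidone replicate 2. Slc22 carriers were 5 of the 21 in the table. Slc5a2, the sodium-glucose carrier of the early proximal tubule, had 41.2 counts there and at most 1.18 elsewhere. Slc5a12, which takes up lactate, had 59 counts and 0 in each of the other libraries. Slc47a1, which extrudes organic cations into urine, had 100 counts and at most 1 elsewhere. Aqp1, the water channel of the proximal tubule and descending thin limb, had 136 counts, and at most 5 elsewhere.

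Enzymes of oxidation formed a class of 20 genes with 1932 counts, against 14.0 to 21.0 in the other libraries. Cytochrome P450 genes were 13 of them, or 7.98% of the 163, while this family is 0.355% of the table. Cyp4b1, a fatty acid hydroxylase, had 5, 4, 3 and 307 counts. Cyp2e1, which oxidizes ethanol and small solvents, had 1, 0, 1 and 237 counts. Its ratio of 237 to the highest other library was the greatest of the 163 genes, whose median ratio was 29.3. Cyp4a14 and Cyp4a10, which hydroxylate fatty acids at their end, had 185 and 117 counts, and Cyp2j5 had 157. Akr1c21, an aldo-keto reductase acting on steroids, had 1, 2, 3 and 160 counts.

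Conjugation and acyl transfer took 14 genes with 1062 counts. Acsm2, a medium-chain acyl-CoA synthetase, had 2, 3, 2 and 332 counts. Sult1d1, a sulfotransferase, had 1, 1, 1 and 128, and Ugt3a2, a glycosyltransferase, had 3, 0, 1 and 123. Gsta2, a glutathione transferase, had 74.0 counts in risperidone replicate 2 and at most 2 elsewhere. None of these had more than 3 counts outside risperidone replicate 2.

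Sugar, inositol and fatty acid metabolism took 13 genes with 2101 counts. Pck1, the entry enzyme of gluconeogenesis, had 9, 0, 3 and 342. G6pc, which releases free glucose, had 2, 1, 3 and 127 counts. Fbp1, fructose bisphosphatase, had 1, 3, 0 and 119. All of these were low in the other libraries, as the rule required. The study names G6pc among the adipocytokine pathway genes that rose with risperidone. Here its high count was in risperidone replicate 2 alone, which the rule also required. Hao2, a peroxisomal oxidase, had 79 counts and Ehhadh, the peroxisomal bifunctional enzyme, 77, with at most 2 elsewhere.

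Amino acid, creatine, choline and one-carbon metabolism took 16 genes with 747 counts. Gatm, the first enzyme of creatine synthesis, had 80 counts, Aass, of lysine breakdown, 73, and Pipox, which oxidizes pipecolic acid and sarcosine, 62. Dao, which breaks down D-amino acids, had 41 and Hpd, of tyrosine breakdown, 36. Dao and Hpd had 0 counts in each of the other libraries, and Pipox at most 3.

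Peptidases, proteases and their inhibitors were 13 genes with 1091 counts. Napsa, an aspartic protease of the proximal tubule and lung, had 5, 8, 9 and 231 counts. Mep1a, meprin alpha of the brush border, had 0, 1, 0 and 160. Ggt1, the brush border enzyme that cleaves glutathione, had 4, 2, 0 and 109. Klk1, tissue kallikrein of the connecting tubule, had 5, 2, 1 and 141. Timp3, a matrix-bound inhibitor of metalloproteinases, had 2, 0, 3 and 172 counts, and Plau, the urokinase that the tubule releases into urine, had 5, 7, 5 and 81 counts. The ratio of Plau, 11.6, was among the lower ones.

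Scaffold, junction, adhesion and traffic genes were 16 with 820 counts. Pdzk1, the scaffold that holds Slc34a1 and other carriers in the brush border, had 128 counts in risperidone replicate 2 and at most 5.03 elsewhere. Cltrn, collectrin, which carries amino acid transporters to the surface, had 118, and Cdh16, the kidney-specific cadherin, had 2, 2, 3 and 107. Cldn2, the claudin of the leaky proximal junction, had 74. Transcription and signalling took 9 genes with 831 counts, of which Ndrg1, a stress-responsive gene, had 12, 8, 10 and 551. The remaining 8 of this class include Hnf4a with 2, 0, 2 and 103 counts, Ppara with 35 and Nr1h4 with 20. Mineral, acid-base and redox handling took 6 genes with 270 counts, among them Alpl, Car2, S100g and Calb1. The last 11 genes, with 450 counts, were given no class.

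**Figure D3:**
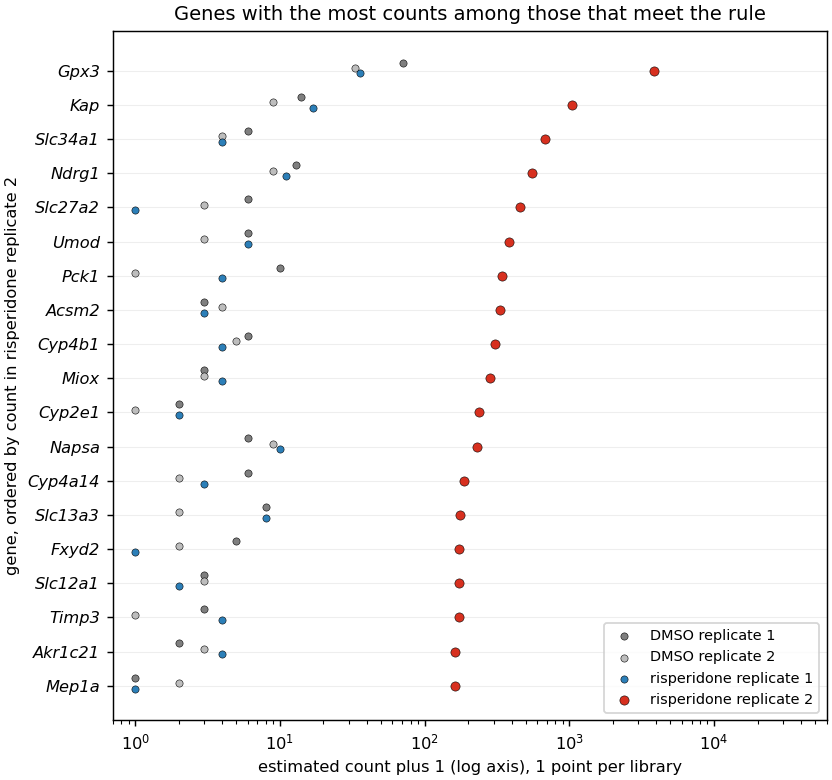
Each row is 1 gene, from the 20 with the most counts among those that meet the rule (1 of them is not shown), and each point is 1 library on a log axis of the estimated count plus 1. Risperidone replicate 2 lies at 160 to 3851 counts, and the 3 other libraries lie at 70 counts or fewer for Gpx3 and at 16 or fewer for the other genes.

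Lists of segment genes were written from general knowledge of the kidney, with earlier results of these data known. They held 83 genes in all, each of which was in the table. Of these, 33 met the rule, which fixes their highest count in risperidone replicate 2, and 50 did not. With these 33 included, 78 had their highest count there, where 20.5% of all genes did. Of the 21 genes of the early and convoluted proximal tubule, 15 met the rule, and all 21, these 15 included, had their highest count there. Lrp2, or megalin, and Cubn, or cubilin, the receptors that take up filtered protein, did not meet it. Lrp2 had 45, 49, 29 and 307 counts, and Cubn had 21, 15, 7 and 105. Their counts in the last library were also the highest, but over higher counts in the others. For the straight part, 2 of 6 genes met the rule, Slc6a18 with 76 counts and Slc7a13 with 67, both amino acid carriers. Cyp7b1, a hydroxylase of oxysterols on the same list, had 15, 22, 8 and 9 counts and was not highest there.

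The loop of Henle gave 6 of 12 genes. Slc12a1, the furosemide-sensitive salt carrier of the thick limb, had 2, 2, 1 and 173 counts. Kcnj1, its potassium channel, had 41 counts, with at most 1 elsewhere. Egf, made in the thick limb and distal tubule, had 21, 24, 35 and 213 and did not meet the rule. Of the 7 genes of the distal convoluted and connecting tubule 4 met it, namely Klk1, Slc12a3, S100g and Calb1. Slc12a3, the thiazide-sensitive salt carrier, had 3, 2, 2 and 118 counts. Of the 12 genes of renal epithelial identity 6 met it, and Fxyd2, the sodium pump subunit of the tubule, was the highest with 4, 1, 0 and 173 counts.

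No gene of the hand-written collecting duct or podocyte lists met the rule, although Atp6v0a4, a proton pump subunit found in intercalated cells that is on none of these lists, met it with 4, 2.01, 5.02 and 58 counts. All 10 intercalated cell genes had their highest count in risperidone replicate 2, where they summed to 63 counts against 7, 1 and 2. The highest of them were Rhcg, an ammonia channel, and Atp6v1b1, a proton pump subunit, with 11 counts each. The 9 principal cell genes summed to 136, 130, 107 and 179 counts, most of them on Scnn1a, a subunit of the epithelial sodium channel, with 125, 120, 93 and 135. Aqp2, the water channel that vasopressin controls, had 3 counts and 0 elsewhere, at the limit that a count of 0 allows. Of the 6 podocyte genes, Podxl, a coat protein of the podocyte, had 6, 4, 1 and 34 counts, and Synpo, at 479 to 647 counts, was present in all libraries. A segment with fewer cells gives fewer counts, and no level of a whole kidney was measured beside these.

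**Figure D4:**
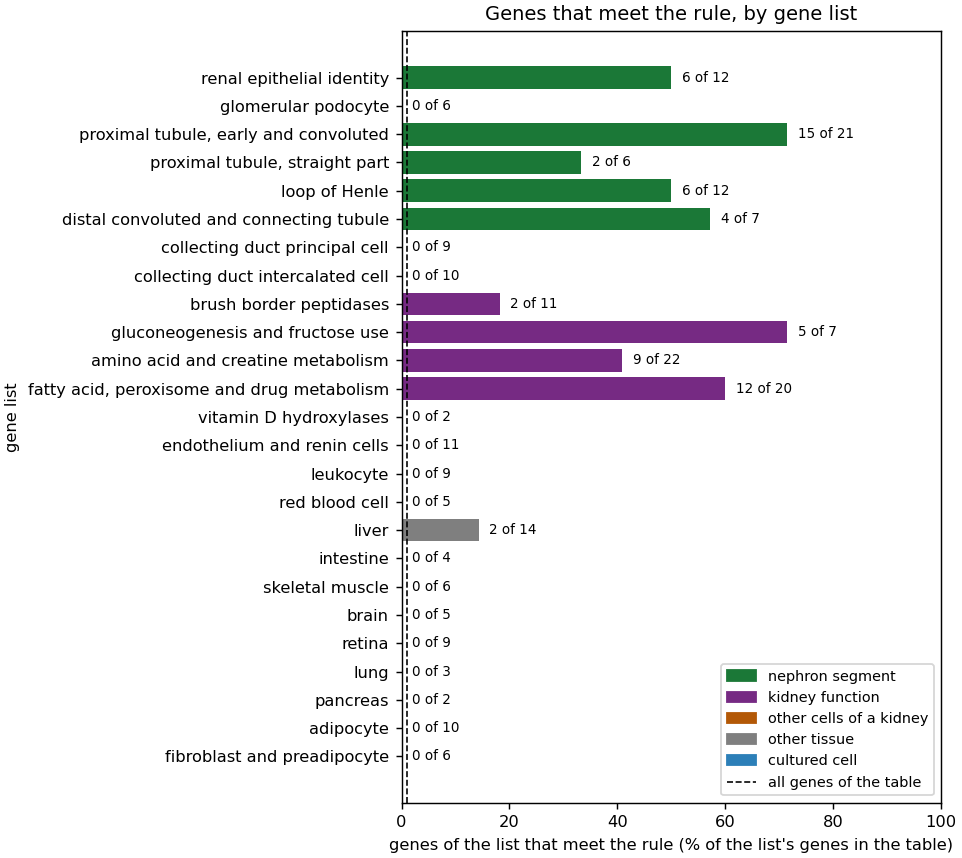
Each bar is the share (%) of a list's genes in the table that meet the rule, with the number of genes beside it, and colours give the kind of list. The dashed line is the share over all genes of the table, 1.02%. The bars stand out for tubule and kidney metabolism lists, with 15 of 21 genes for the early and convoluted proximal tubule. The adipocyte list gives 0 of 10 genes. Nothing is read from that 0, since genes with many counts in every library can hardly meet the rule.

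The lists by function gave 28 of 62 genes in the table. Of the 163 genes, 59 stood on a segment or function list and 104 on none. They were 5 of 7 for gluconeogenesis and fructose use, 12 of 20 for fatty acid, peroxisome and drug metabolism, 9 of 22 for amino acid and creatine metabolism and 2 of 11 for brush border peptidases. Ass1, which makes argininosuccinate in the arginine pathway, had 54, 54, 89 and 513 counts and did not meet the rule. Of the 2 vitamin D hydroxylases 0 met it. Cyp24a1 had 19 counts, 1 below the minimum, and 0 in the other libraries.

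Lists of other tissues gave 2 of 43 genes in the table. With these 2 included, 15 of the 43 had their highest count in risperidone replicate 2, where 20.5% of all genes did. Both genes stood on the liver list, where they were 14.3% of 14 genes, against 1.02% of the table. Apob, the apolipoprotein of liver lipoproteins, had 0, 2, 0 and 81 counts, and Serpina1a, an antitrypsin, had 1.46, 0, 0 and 28.7. Alb, which defines hepatocytes, had 0, 1, 0 and 5 counts, and Ttr, of the same list, had 0, 0, 0 and 8. Apoa1 and Apoa2 had 0 in risperidone replicate 2. Of the 14 liver genes 7 had their highest count in that library, among them Fga, a fibrinogen chain, with 7 counts against at most 1. Intestine, skeletal muscle, brain, retina, lung and pancreas gave 0 genes, and of the testis list no gene was in the table. The genes of the retina list summed to 106, 77, 90 and 65 counts, with risperidone replicate 2 the lowest. The lists of adipocytes and of fibroblasts gave 0 of 10 and 0 of 6, and Col1a1 had 62523 counts in risperidone replicate 2 and 67400 in risperidone replicate 1. Lists this short would mostly give 0 at the table's share of 1.02%, so nothing is read from these values of 0.

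No gene of the red cell, leukocyte or endothelial lists met the rule. The counts of the 5 red cell genes summed to 25 in risperidone replicate 2 and to 2, 0 and 0 in the others, with Hba-a1, an alpha globin, at 13.6. On the leukocyte list of 9 genes, H2-Ab1 and H2-Aa, of antigen presentation, had 16 and 15 counts against at most 1 elsewhere. Others of that list were present in all libraries, such as Cd74 with 100, 117, 58 and 116 counts and Cd68 with 48, 62, 115 and 120, and Lyz2 had 3, 8, 5 and 4. Of the 11 genes of endothelium and renin cells, 8 had their highest count in risperidone replicate 2. Emcn had 8 counts, Cdh5 had 5 and both had 0 elsewhere, while Ren1, renin, had 5 counts against at most 3. Ehd3 and Flt1 were present in all libraries and were not highest in that one, with 7843, 7402, 5069 and 5417 counts and with 103, 99, 34 and 50.

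Both lists of kidney genes that differ between male and female mice held genes that met the rule. Of 9 genes known to be higher in males 5 met the rule, namely Kap, Cyp4b1, Cyp2e1, Slc7a13 and Cyp2j13. Among the rest, Slco1a1 had 0, 0, 1 and 7 counts, and Cyp7b1 was higher in both DMSO libraries than in risperidone replicate 2. Of 3 known to be higher in females 2 did, namely Cyp4a14 with 185 counts and Cyp2a4 with 91.5, although Slc7a12 had only 3. The Y-linked genes Ddx3y, Eif2s3y, Kdm5d and Uty had 5, 5, 2 and 2 counts in risperidone replicate 2, and 0 in each of the other libraries. Each of the other libraries thus had 0 counts on all 4 genes together, while risperidone replicate 2 had 14.

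Some neighbouring genes met the rule together. With 15948 genes placed along GRCm38.p6, 27 of the 163 genes lay in 13 runs in which the next gene of the table also met it. The longest run was Cyp4a14, Cyp4a10 and Cyp4a31 on chromosome 4, and others were Slc6a18 with Slc6a19 and Slc17a3 with Slc17a1 on chromosome 13, Slc22a8 with Slc22a6 on chromosome 19, and Fmo1 with Fmo2 on chromosome 1. The 163 genes stood on 20 chromosomes, and 162 of the 163 genes were protein coding. Close paralogs can share reads, and 17 of the genes had a count that was not whole (by more than 1e-06) in at least 1 library, 14 of them in risperidone replicate 2. Cyp2a4 and Cyp2a5 had 91.5 and 81.5 counts, and Serpina1a and Serpina1d 28.7 and 25.9, so the split within such pairs is uncertain.

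Genes near the limits of the rule included more of the kidney. Just inside the fold of 10 were Nr1h4, the bile acid receptor, with a ratio of 10, and Car2, a carbonic anhydrase, with 10.2. Just outside were Mme, neprilysin of the brush border, with 28 counts and a ratio of 9.33, and Selenbp1, with 92.0 counts and 9.29. A further 106 genes had the fold but 10 to under 20 counts, among them the brush border peptidase Enpep with 19. Another 35 had at least 20 counts and a ratio of 5 to under 10. In the opposite direction, Zfp966 alone was lower by the same fold or more among genes with at least 20 counts in each of the other libraries. It had 0 counts in risperidone replicate 2 and up to 468 elsewhere, and it is named since it was the only such gene.

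Of the genes, 20 had at least 5 counts in another library, and 4 had at least 10, among them Gpx3, Kap and Ndrg1. The 163 genes summed in risperidone replicate 1, DMSO replicate 2 and DMSO replicate 1 to 1.14%, 1.11% and 1.98% of their sum in risperidone replicate 2. DMSO replicate 1 had counts above 0 on 109 of the 163 genes, and the other libraries on 79 and 78.

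The genes also entered a comparison of risperidone with DMSO over all genes. Counts were rounded and tested with edgeR's quasi-likelihood test, two-sided, over the 10243 genes whose FPKM averaged 1 or more. Of the 163 genes, 24 passed that limit, and only 2 of them, Gpx3 and Kap, also did so without risperidone replicate 2. The rule used the same libraries, so the calls carry no further support. All 24 were higher with risperidone at an adjusted p under 0.05, where 32.1% of all genes were. DESeq2 called 12 of the 24 higher, where it called 25.8% of all genes higher. Without risperidone replicate 2, 0 of the 2 genes that passed were called by edgeR, either adjusted or at an unadjusted p under 0.05, while 32.6% of all genes were higher and 32.8% lower. The rule had required low counts in the remaining risperidone library, whose spread was assumed to be that of the DMSO libraries, so nothing is read from the missing calls.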

How the data were processed

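Per the authors' methods, adaptors were taken off the MGISEQ-2000 reads, and reads with poly-N or of low quality were dropped. The rest were mapped, and FPKM values came from the DC.TOM platform. The submitters' processing notes name Bowtie2, RSEM, DESeq2 and GRCm38.p6, without roles. The deposited table gives each gene's estimated count in each library, together with FPKM and TPM, as the authors made them, and which tool estimated the count is not given in the sources used here. The mean columns of each treatment were not used, and there were no other columns of per-sample values.

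Genes were chosen on the estimated counts as given. The genes and the gene lists, 29 in number, were chosen with earlier results of these data known, and the lists and the classes were written from general knowledge, the classes after the genes were seen. Counts were rounded and tested with edgeR 4.0.16 in R 4.3.3 after TMM normalization, with Benjamini-Hochberg adjustment and only genes whose FPKM averaged 1 or more entered the fit. Alternatives used limma 3.58.1, DESeq2 1.42.0, other scalings, other limits and each library left out. The fits were tested on simulated data. Tables and figures were made with Python 3.11.15, pandas 2.3.3 and matplotlib 3.10.9, and gene positions and promoter windows were read from RefSeq on GRCm38.p6. Named genes were the 4 markers, the 20 genes with the most counts and up to 4 genes of each list that met the rule. Also named were genes with the highest mean count in some lists and genes that the study names. Those nearest the fold limit and those with at least 5 counts in another library were named too. Some genes that this rule names are not reported here. Slc22a12, Kl, Guca2b and other genes named as examples of a class were chosen after their values were seen. So were further genes of the lists, such as Cd36, Adipoq, Alb and Fga. Depths were 15883712 to 16374119 counts per library, and intervals cover counting error only.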

Additional observations from a re-analysis of the deposited data

How the results depend on the processing

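The number of genes that met the rule was 163. It was 269 with a minimum of 10 counts, 80 with a minimum of 50 and 108 with the fold taken on FPKM, of which 107 were among the 163. A fold of 5 gave 198 and a fold of 20 gave 132, and TMM scaling gave the same 163 genes. Their share of the counts of risperidone replicate 2, 0.115%, was 0.109% without Kap, 0.0483% without the 20 genes with the most counts and 0.143% of the summed TPM. TATAAA stood in 27.4% of the windows of genes with at least 50 counts, against 19.6% in all. By edgeR 24 of the 24 genes tested were called higher with risperidone, where 32.1% of all genes were. When FPKM had to average 5 or more, only 4 were tested and 4 were called, against 33.1% of all genes. DESeq2 called 12 of 24, against 25.8% of all genes. Limma on log2(FPKM + 1) called 0 of 24, also at an unadjusted p under 0.05, against 23.6% of all genes. On log2(FPKM + 0.1) it called 1, against 23.7%. Without a filter edgeR called 0 of 163, against 18.4% of all genes, and 56 were at an unadjusted p under 0.05. Leaving out 1 library gave 0 to 43, with 0 without risperidone replicate 2 and 42 or 43 without any other library, where 43 genes passed the limit. A treatment left with 1 library was assumed to vary like the other. Many other genes were also called higher in the fits with 1 library left out, so nothing is read from these counts. A term for the replicate number (replicate block) also gave 24. Whether the replicate numbers pair the libraries is not stated in the sources used here. Deviations of same-numbered libraries from the treatment means correlated at -0.0603. With 2 libraries per treatment this is a single value, which cannot decide it. With 2 pooled libraries per treatment and counts of 20 to 50 for 83 of the genes, small differences are not detectable.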
